A study of Homo sapiens with 3 samples.

Results

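Transcripts of 9 genes of polyamine metabolism were followed in L428tetPU.1 cells after a switch for PU.1 was released. PU.1, the product of SPI1, is a DNA-binding factor that guides the making of macrophages and B lymphocytes. The genes were named as a set around SRM, which had been picked for its fall in these data, and every probe with 1 of their names was used: 11 probes, among the probes of 19367 named genes. The cells derive from L428, a line of classical Hodgkin lymphoma, and carry a PU.1 gene held off by tetracycline, present at 500 ng/ml in the growth medium. RNA was measured on 3 Illumina bead arrays, 1 from cells before tetracycline was removed (day 0), 1 after 1 day and 1 after 3 days without it. All 3 groups are the same engineered line, so removal of tetracycline, time in culture and PU.1 itself cannot be told apart. The submitters' design text speaks of 4 independent experiments, whereas the files give 1 column per day. No value here has a replicate error, and no test between days was possible.

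Polyamines are small positively charged molecules that bind nucleic acids and that growing cells need for translation. ODC1 turns ornithine into putrescine, AMD1 makes the donor of the aminopropyl group (decarboxylated S-adenosylmethionine), SRM joins that group to putrescine to give spermidine, and SMS adds another to give spermine. Each transfer leaves methylthioadenosine, which MTAP cleaves for return to methionine and adenine. Antizymes, encoded by OAZ1 and OAZ2, bind the ODC protein and send it to the proteasome, AZIN1 is an inactive relative of ODC that binds antizyme in its place, and SAT1 acetylates spermidine and spermine for export or breakdown. Much of this control acts on proteins, which arrays do not measure. ODC1 and SRM are known as target genes of the growth factor-responsive transcription factor MYC.

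On the 3 arrays, between 10838 and 11317 of 48701 probes were above background, taken as a detection p-value under 0.01. The dimmest of them had an intensity of 70.4, 64.5 and 67.0 in day order. Of 17 Hodgkin line and B cell markers with a probe, 11 were above background on every array. These included TNFRSF8 (CD30), FUT4, FSCN1 and IRF4. JUNB and the B cell genes MS4A1, CD79A, CD79B, PAX5 and POU2F2 were not above background on any array. Of 5 T cell markers 0 were above background on any array. Of 6 monocyte and macrophage markers 1, CD68, was above background on each array, at an intensity of 159.9, 4022.0 and 529.0, while CD14, CSF1R, LYZ, MRC1 and S100A9 were not. Of 6 fibroblast markers 1, COL1A1, was above background at day 1 alone, at 67.0. The SPI1 probe had intensities of 40.8, 35.3 and 38.9 and was not above background on any array, so no rise of PU.1 RNA was measured. Whether this probe reads RNA of the introduced PU.1 gene was not tested. GAPDH changed by -0.10 log2 at day 1 and -0.07 at day 3, and ACTB by -0.21 and 0.00, each on its brightest probe, close to the highest intensities on the arrays. Probes of ACTB disagreed at day 1: another, ILMN_1777296, had intensities of 2535.2, 8246.3 and 2661.1 and changed by 1.85 and 0.26, while the remaining one changed by 0.16 and 0.09. The other GAPDH probes changed by 0.09 and 0.01 at day 1 and by 0.17 and 0.10 at day 3.

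Changes are differences of log2 signal after background correction and quantile normalization of the 3 arrays. A gene was called when it changed at least 2-fold, which is 1 log2, and "rose" and "fell" are used only of called genes. The sole error that could be had is that between probes of 1 gene, from 416 genes for which exactly 2 probes passed the detection limit on each array. As an SD it was 0.36 log2 for day 1 against day 0, 0.29 for day 3 against day 0 and 0.31 for day 3 against day 1, and it leaves out all differences between cultures and RNA preparations. All 9 genes had their brighter probe above background on every array. At day 1, 2 of the 9 rose (OAZ2 and SAT1) and 1 fell (SRM), while 9.18% of all 9311 measured genes rose and 7.98% fell. At day 3, 1 rose (SAT1) and 1 fell (SRM), against 4.97% and 2.13% of 9190 genes. From day 1 to day 3, 1 fell (OAZ2) and 0 rose, against 3.92% and 3.54% of 9318 genes. SRM was chosen on the contrasts with day 0, so its counts, changes and differences from other genes there are a description. The median change of the 9 genes was 0.17 log2 at day 1 and 0.08 at day 3, beside -0.05 and -0.06 over all measured genes, and at day 3 it was -0.11 with 75th percentile scaling and -0.10 in the authors' deposited table, beside -0.18 and -0.16 over all measured genes. Both scalings shift the typical gene: the median change of genes detected on both arrays moved by -0.10 and -0.08 at day 1 and by -0.12 and -0.10 at day 3. Values "less the median" below are taken relative to that median in each setting. In the plot of intensities by day, the lines of SRM, ODC1 and MTAP go down, that of SAT1 goes up, and that of OAZ2 goes up and returns.

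**Figure D1:**
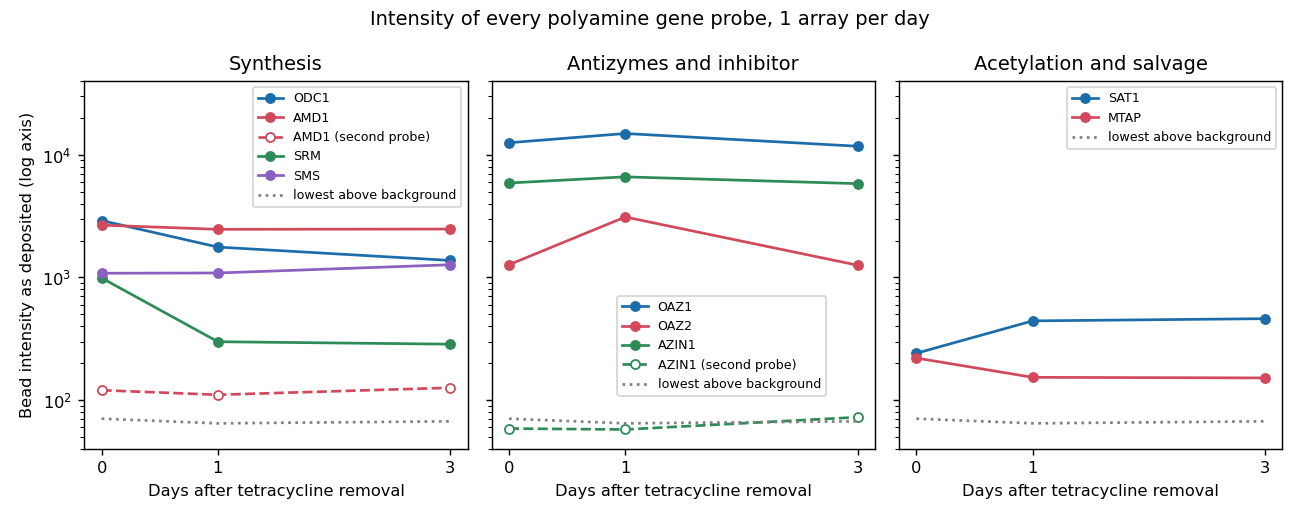
Bead intensity of each of the 11 probes (log axis) against days after tetracycline removal, with 1 array per day and therefore no error bars. Filled points are the probe that stands for a gene, open points a second probe, and the dotted line the lowest intensity above background. SRM drops from 989.3 to 298.9 by day 1 and stays there, and OAZ2 peaks at 3112.0 on day 1.

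Of the 4 synthesis genes SRM alone was called. SRM, spermidine synthase (probe ILMN_1661337), had intensities of 989.3, 298.9 and 285.4 at day 0, day 1 and day 3, so that day 0 was high and the later days were low and alike. Its normalized signal fell by 1.59 log2 at day 1 (33.1% of day 0) and fell by 1.70 at day 3 (30.8% of day 0). Between day 1 and day 3 it changed by -0.10. Among genes above background on both arrays, the change of SRM was the 108th lowest of 8198 at day 1 and the 7th lowest of 8312 at day 3. Over all measured genes 743 fell at day 1 and 196 at day 3.

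ODC1, ornithine decarboxylase (ILMN_1748591), was lower on each later array, short of the size rule. Over the 3 days it had intensities of 2909.3, 1768.7 and 1375.9, each lower than the one before. Its log2 change was -0.53 at day 1 and -0.90 at day 3, or 69.4% and 53.5% of day 0, and the change at day 3 was 3.08 times the probe error and the 297th lowest of 8312 genes. It lies just short of the size rule: with 75th percentile scaling of the arrays it was -1.10, and in the authors' deposited table -1.09, and there ODC1 counted as lower. Less the median it was -0.82 in the main setting, -0.90 with 75th percentile scaling and -0.90 in the authors' deposited table, short of 2-fold in each.

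AMD1 and SMS did not reach 2-fold on either day. The brighter AMD1 probe had intensities of 2671.6, 2467.7 and 2480.8 at day 0, day 1 and day 3, and the second AMD1 probe had 120.2, 110.3 and 125.9. The changes at day 1 were 0.08 and -0.07 on these 2 probes, and at day 3 they were 0.08 and 0.11, all within the probe error. The sign of the brighter probe turned under 75th percentile scaling (-0.08 at day 1 and -0.12 at day 3) and in the authors' deposited table (-0.07 and -0.11). Less the median it was above 0 in the main setting and in both scalings, between 0.09 and 0.16 at day 1 and between 0.07 and 0.16 at day 3. All these lie below the probe error over all genes. SMS, spermine synthase, had intensities of 1081.9, 1087.1 and 1268.8. Its log2 changes were 0.23 at day 1 and 0.44 at day 3, below the probe error at day 1 and above it at day 3. With 75th percentile scaling and in the authors' deposited table the value at day 3 was 0.22, below that error. Less the median it was 0.52 in the main setting, 0.42 with that scaling and 0.41 in the authors' deposited table, above the error in each.

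SRM and SMS catalyse successive steps. As a description, since SRM was picked for its fall, the log2 change of SRM less that of SMS was -1.82 at day 1 and -2.13 at day 3. Over the processing settings this difference lay between -1.88 and -1.71 at day 1 and between -2.20 and -2.01 at day 3. Against ODC1 the change of SRM was lower by less, with differences of -1.07 at day 1 and -0.80 at day 3. Such differences are between changes within the same arrays, and not between levels of the genes.

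**Figure D2:**
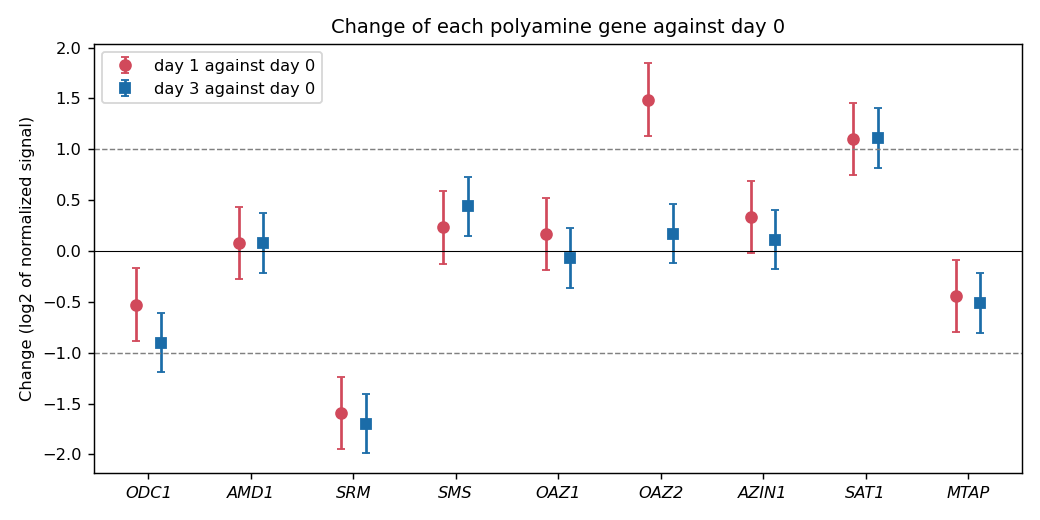
Log2 change of each of the 9 genes at day 1 (circles) and day 3 (squares) against day 0, with bars of ± 1 SD of the probe error (0.36 and 0.29 log2) and dashed lines at 2-fold. SRM lies below the lower line on both days, SAT1 just above the upper line on both, and OAZ2 above it at day 1 alone.

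Of the antizyme genes OAZ2 was called and OAZ1 was not. OAZ2, which encodes a widely expressed antizyme (ILMN_1695985), had intensities of 1269.9, 3112.0 and 1257.4. Day 1 was high and the other days were alike. OAZ2 rose by 1.49 log2 (2.80-fold, 4.18 times the probe error) at day 1, the 314th highest change of 8198 genes. From day 1 to day 3 it fell by 1.32 (4.22 times the probe error), the 151st lowest change of 8489 genes, and at day 3 its change against day 0 was 0.17. That last value was -0.03 with 75th percentile scaling and -0.02 in the authors' deposited table. Less the median it was 0.25, 0.17 and 0.16 in the main setting and these scalings, below the probe error in each. OAZ2 has 1 probe, so no second probe could be set beside it. ACTB probe ILMN_1777296 had a like course, with changes of 1.85 at day 1 and 0.26 at day 3. The other ACTB probes changed by -0.21 and 0.16 at day 1. ACTB has 3 probes and is not among the 416 genes that gave the probe error.

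OAZ1, the main antizyme gene, had intensities of 12550.8, 14926.7 and 11753.6, with log2 changes of 0.17 at day 1 and -0.07 at day 3. These are close to the highest intensities on the arrays (15373.7, 16360.4 and 15911.4), and the files carry no mark of saturation. AZIN1, the antizyme inhibitor gene, had intensities of 5893.7, 6614.3 and 5821.4 on its brighter probe. Its log2 change was 0.33 at day 1 and 0.11 at day 3, below the probe error over all genes. Outside the polyamine genes, 9 genes on the arrays had both probes at a log2 signal of at least 11. Between their probes that error was 0.14 for day 1 and for day 3 against day 0. It leaves out ACTB, which has 3 probes, and these changed by -0.21, 0.16 and 1.85 at day 1. The change of AZIN1, a bright gene, was above the error of these 9 genes at day 1 and below it at day 3. The change of OAZ1 was likewise above it at day 1 and below it at day 3. Less the median, the brighter AMD1 probe was above it in the main setting (0.16 on both days) and below it in both scalings. For AZIN1 the value at day 3 was -0.03 with 75th percentile scaling. Less the median it was 0.19 in the main setting, 0.17 with that scaling and 0.16 in the authors' deposited table. Each of these lies above the 0.14 of the 9 genes and below the 0.29 over all genes. The second AZIN1 probe was above background at day 3 alone, with an intensity of 72.4 after 58.5 and 57.5.

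SAT1, the acetyltransferase that starts polyamine breakdown and export (ILMN_1753342), moved opposite to SRM. The probe had intensities of 240.6, 442.1 and 460.8, so that day 0 was low and the later days were alike. SAT1 rose by 1.10 log2 (2.14-fold) at day 1 and 1.11 (2.16-fold) at day 3, which were 3.09 and 3.79 times the probe error. These calls lie just inside the size rule and ended in 3 of 11 alternatives. The changes were 0.97 at day 1 and 0.98 at day 3 with 75th percentile scaling, 0.92 and 0.93 in the authors' deposited table, and 0.989 and 0.998 with an offset of 50. Less the median, the change of SAT1 was between 1.08 and 1.19 at day 1 and between 1.11 and 1.19 at day 3. These ranges cover the main setting, 75th percentile scaling and the authors' deposited table, and not the offset of 50. MTAP, the salvage gene, had intensities of 220.0, 153.1 and 151.4, highest at day 0. Its log2 changes of -0.44 and -0.51 were 1.24 and 1.75 times the probe error and did not reach 2-fold.

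**Figure D3:**
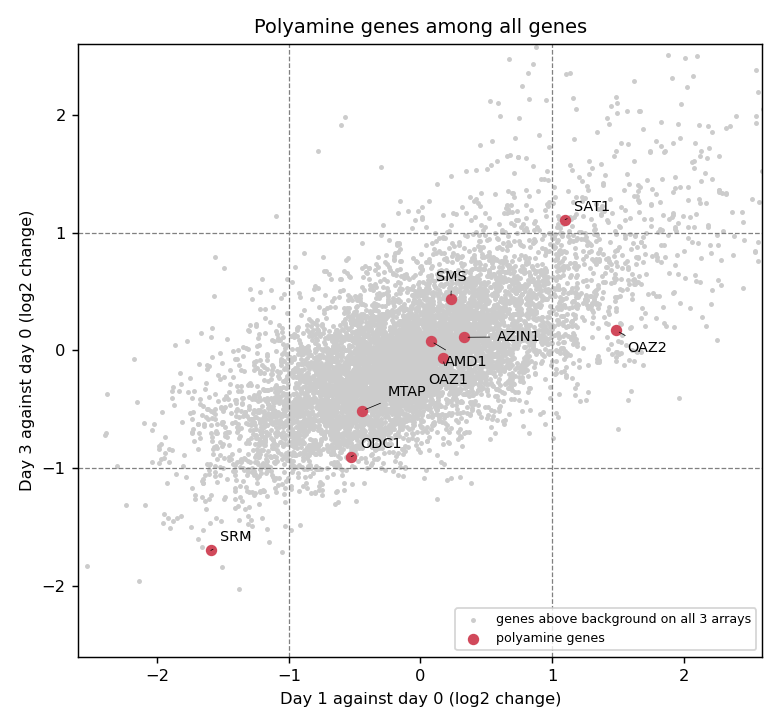
Log2 change at day 3 (vertical) against that at day 1 (horizontal), both against the same day 0 array, for 8090 genes above background on all arrays (grey, with 66 outside the axes) and the 9 polyamine genes (red). Dashed lines mark 2-fold. SRM lies in the lower left corner, SAT1 in the upper right one, OAZ2 to the right near 0 at day 3, and the others within 2-fold on both axes.

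**Figure D4:**
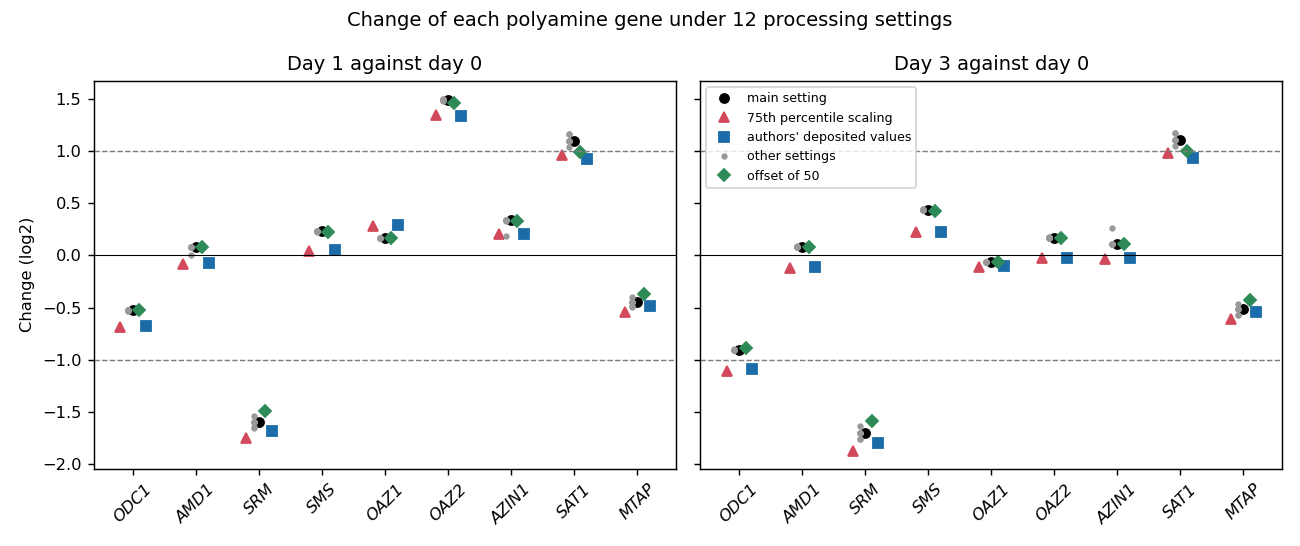
Log2 change of each of the 9 genes at day 1 (left) and day 3 (right) against day 0 under 12 settings of the processing, with dashed lines at 2-fold. SRM stays below the lower line in every setting, while SAT1 (both days) and ODC1 (day 3) lie beside a line and cross it with the scaling.

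Promoters are shown for SRM and ODC1, the synthesis genes with the lowest changes at day 3, and for SAT1 and OAZ2, the genes that rose. Each is the RefSeq stretch of 300 bases on GRCh38.p14, from 250 bases before a transcription start to 50 after it, read along the gene's strand. Capitals mark CACGTG, the E-box bound by MYC with MAX, and GAGGAA, the core of the PU-box bound by PU.1, or its reverse complement. Both motifs were searched on both strands and no 2 matches overlapped.
SRM, chr1:11059969-11060268, minus strand: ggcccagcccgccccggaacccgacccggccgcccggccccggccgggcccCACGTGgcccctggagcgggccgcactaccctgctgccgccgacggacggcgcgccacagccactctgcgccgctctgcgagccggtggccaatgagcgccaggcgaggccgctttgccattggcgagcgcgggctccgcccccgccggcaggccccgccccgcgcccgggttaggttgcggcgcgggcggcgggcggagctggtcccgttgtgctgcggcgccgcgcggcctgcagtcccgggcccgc
ODC1, chr2:10447963-10448262, minus strand: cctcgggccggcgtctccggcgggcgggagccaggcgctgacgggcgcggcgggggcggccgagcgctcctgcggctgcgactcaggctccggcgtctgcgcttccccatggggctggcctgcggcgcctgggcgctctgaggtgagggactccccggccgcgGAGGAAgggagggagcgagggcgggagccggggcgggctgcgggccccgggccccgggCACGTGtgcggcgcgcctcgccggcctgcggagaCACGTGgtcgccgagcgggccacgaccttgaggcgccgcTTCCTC
SAT1, chrX:23782923-23783222, plus strand: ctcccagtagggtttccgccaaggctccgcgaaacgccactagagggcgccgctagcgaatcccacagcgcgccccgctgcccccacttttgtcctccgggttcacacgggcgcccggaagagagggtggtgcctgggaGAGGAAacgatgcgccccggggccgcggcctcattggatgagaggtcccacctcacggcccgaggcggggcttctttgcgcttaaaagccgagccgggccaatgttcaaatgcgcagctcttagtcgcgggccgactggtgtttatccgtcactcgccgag
OAZ2, chr15:64703232-64703531, minus strand: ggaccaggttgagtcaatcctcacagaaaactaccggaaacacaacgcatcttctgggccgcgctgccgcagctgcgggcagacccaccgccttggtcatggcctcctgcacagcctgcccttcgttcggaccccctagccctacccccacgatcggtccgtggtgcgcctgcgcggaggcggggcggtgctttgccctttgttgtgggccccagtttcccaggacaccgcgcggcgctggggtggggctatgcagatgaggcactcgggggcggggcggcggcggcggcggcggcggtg

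The SRM promoter held 1 E-box, 199 bases before the start. The ODC1 promoter shown held 2 E-boxes, 29 bases before and 5 bases after its start, and 2 PU-box cores, 87 before and 44 after. That promoter was the one shown because it has matches, and its start lies inside the gene as annotated. The other ODC1 start is the one at the 5' end of the gene. Its promoter (chr2:10448278-10448577) is not shown and held 0 of either motif. The SAT1 promoter held 1 PU-box core, 111 bases before its start, and that of OAZ2 held 0 of either. Of the 8 genes with a promoter in the table, 2 (SRM and ODC1) held an E-box and 4 (ODC1, SMS, SAT1 and MTAP) a PU-box core. Among all 27305 genes with such a promoter, 8.77% held an E-box and 31.8% a PU-box core in at least 1 of their promoters. A match of letters is a description of the window and does not show that a factor binds there.

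Genes next to these steps were read from lists of the pathway, and the lists gave calls in both directions. Polyamine enzymes beyond the 9 had 4 of 7 genes measured at day 1 and 3 at day 3, with 0 called on either day. SAT2, a relative of SAT1, had intensities of 415.1, 341.2 and 261.2 and log2 changes of -0.11 and -0.56. PAOX, a polyamine oxidase, had 132.3, 98.9 and 123.8 and changes of -0.42 and -0.08. Of 11 polyamine transport genes with a probe 4 were measured, with 0 called and a median change of -0.55 at day 1 and -0.46 at day 3. All measured genes had medians of -0.05 and -0.06. Of them, 9.18% rose and 7.98% fell at day 1, and 4.97% rose and 2.13% fell at day 3. Counts of 0 among so few genes are not read against those shares. SLC18B1, a vesicular polyamine transporter, changed by -0.60 on both days, and SLC3A2, a transporter heavy chain, by -0.61 and -0.31 on its brighter probe. The second SLC3A2 probe, above background at day 3 alone at 74.6, changed by -0.06 and 0.38, so the probes disagree in sign at day 3.

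Spermidine is the substrate for hypusine, a modified amino acid found on the translation factor eIF5A. DOHH, the hydroxylase that completes hypusine, fell by 1.06 log2 at day 1, with intensities of 431.5, 192.9 and 237.3, and its change at day 3 was -0.78. That fall was short of 2-fold without background correction (-0.99) and with an offset of 50 (-0.94). DHPS, which uses the spermidine, changed by -0.52 and -0.19, and EIF5A by -0.27 and -0.48. All 4 genes of this list were measured, with medians of -0.40 at day 1 and -0.34 at day 3. Over all measured genes the medians were -0.05 and -0.06.

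Methionine supplies the aminopropyl group, and 12 of 17 genes of its cycle and salvage were measured. At day 1, 3 rose and 2 fell, and at day 3, 2 rose and 1 fell, with medians of 0.17 and 0.11. Over all measured genes 9.18% rose and 7.98% fell at day 1 and 4.97% and 2.13% at day 3, with medians of -0.05 and -0.06, and counts this small are not read against those shares. AHCY, which clears S-adenosylhomocysteine and was named after its values were seen, had intensities of 854.0, 367.5 and 335.7. It fell by 1.04 at day 1 (-0.97 with an offset of 50) and by 1.22 at day 3. ENOPH1, a salvage enzyme downstream of MTAP, fell by 1.28 at day 1, with intensities of 1023.9, 373.3 and 593.3, and changed by -0.62 at day 3. MTR, methionine synthase, rose by 1.61 at day 1, with intensities of 142.5, 366.4 and 184.1, and changed by 0.48 at day 3. AHCYL2, a relative of AHCY, rose by 2.12 and 1.25. IL4I1, an amino acid oxidase of immune cells, rose by 1.97 and 1.39, while its second probe was not above background, so that the mean of both probes (0.997 and 0.70) ended its calls.

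Arginine, ornithine and proline genes had a median change of -0.91 at day 1 over 7 measured genes of 19 with a probe, and of -0.61 at day 3 over 8, beside -0.05 and -0.06 over all measured genes. At day 1, 1 rose and 3 fell (all genes, 9.18% and 7.98%), and at day 3, 0 rose and 2 fell (4.97% and 2.13%). NOS3, which makes nitric oxide from arginine, had intensities of 747.0, 202.3 and 323.1 and fell by 1.78 at day 1 and 1.08 at day 3, a value just short of 2-fold with an offset of 50. GAMT, the last enzyme of creatine synthesis, fell by 1.41 and 1.19. Its second probe changed by -1.51 and -1.11, and its remaining probe was not above background, so that the mean of its probes (-0.96 and -0.72) ended its calls. SLC25A15, the mitochondrial ornithine carrier, was at least 2.64-fold lower at day 1, where it was not above background, and changed by -0.69 at day 3, and its call ended with an offset of 50 and when genes had to be above background on all 3 arrays. ALDH4A1, of proline breakdown, rose by 1.93 at day 1, with intensities of 230.4, 748.6 and 295.5, and changed by 0.49 at day 3. The arginase gene ARG1 was not above background, and ARG2 was so at day 3 alone, at 79.8.

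Of 9 measured genes of the MYC and MAX network, 1 rose and 0 fell on each day, with medians of -0.06 and -0.06. All measured genes had medians of -0.05 and -0.06. Among those genes 9.18% rose and 7.98% fell at day 1, and 4.97% rose and 2.13% fell at day 3. MXD1, which pairs with MAX and opposes MYC, had intensities of 102.6, 586.3 and 392.8 and rose by 2.84 and 2.20. MYC had 1103.8, 612.0 and 813.8, with log2 changes of -0.64 at day 1 and -0.24 at day 3, lowest at day 1 and short of 2-fold. MXD3, another partner of MAX, which was named after its values were seen, had 105.9, 57.9 and 73.6 and was not above background at day 1, where it was at least 1.80-fold lower. It counted as lower there in 5 of 11 alternatives: background mean subtracted, offset of 0, detection p under 0.05, no detection filter and 1.5-fold. MAX had 78.9, 85.2 and 72.4 on the probe that was brightest on average, with changes of 0.18 and -0.18. Another MAX probe, not above background at day 0, had 62.9, 90.6 and 73.0 with changes of 0.73 and 0.28, so the probes disagree in sign at day 3.

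**Figure D5:**
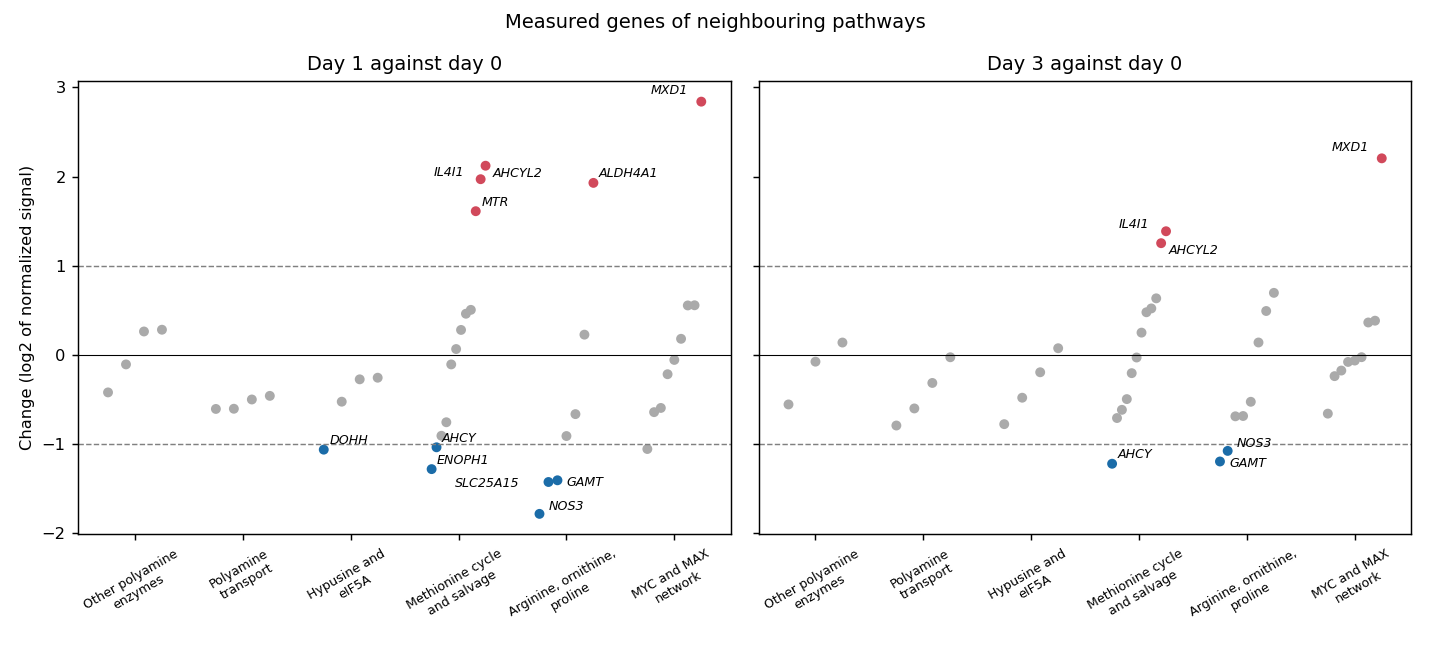
Log2 change of every measured gene of 6 neighbouring lists at day 1 (left) and day 3 (right) against day 0, 1 point per gene, with dashed lines at 2-fold. Red and blue points were called higher or lower and carry their names, grey points were not called, and genes within a list are ordered by their change. MXD1 is the highest point on both days, and NOS3 the lowest at day 1.

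Among 8090 genes above background on all arrays, the 5 with the pair of changes nearest to that of SRM were MRPS34, POLR2L, ADISSP, TIGD5 and SLC33A2. The distance in log2 units over the 2 contrasts with day 0, which share that array, was 0.07 for MRPS34, a protein of the mitochondrial ribosome. MRPS34 fell by 1.66 and 1.67, with intensities of 405.5, 127.0 and 130.2. The next was POLR2L, a subunit of the RNA polymerases, at a distance of 0.14, with log2 changes of -1.69 and -1.60. The other distances were 0.16 for ADISSP, 0.18 for TIGD5 and 0.23 for SLC33A2. The other polyamine genes were not among these 5.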

How the data were processed

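RNA of 3 arrays, 1 each for day 0, day 1 and day 3, was analysed. Per the file headers, the authors deposited non-normalized bead intensities on a linear scale and a detection p-value for each of 48701 probes. BeadStudio 3.3.7 is named per the submitters' processing notes. The deposited table of log2 values was recovered from the log2 intensities by taking off each array's 75th percentile and each probe's median, to within 2.48e-06. Each of its columns has a median of 0, and it holds no levels.

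Intensities were corrected with the normexp model of limma 3.58.1 (R 4.3.3), with background inferred from detection p-values (mean 32.5 to 33.2) and an offset of 16. They were then quantile normalized and put on log2, which draws dim probes toward 0 and removes a shift common to most genes. Tables were made in Python 3.11.15 with pandas 2.3.3. Of the probes, 24303 had 1 gene symbol in the platform annotation, 0 several and 24398 none. Symbols were updated through RefSeq for GRCh38.p14 by gene ID (24089) or accession (50), and 164 kept the platform's. The brightest probe stood for a gene. Whether a probe also reads a pseudogene or relative was not tested, and the number of arrays limits precision.

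A gene was measured if above background (detection p-value under 0.01) on at least 1 of 2 arrays. With 1 array only, the brighter value was set against the higher of the dim probe's own value and the lowest value above background, as "at least N-fold". The members and lists were chosen with earlier results of these data known. Named were all members, SPI1, MYC, MAX, GAPDH, ACTB, up to 4 called genes of each list (the 2 brightest if 0 were called), and the 5 genes nearest SRM. Any other gene was picked with its values in view. The code was tested on simulated data, and 11 alternatives were run.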

Additional observations from a re-analysis of the deposited data

How the results depend on the processing

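Of 11 alternatives, 4 change only the filter or the fold limit and leave each log2 change as it is, and the mean over probes can move only AMD1 and AZIN1. The 168 values of the 9 genes that could move all lay within 1 probe error of the main value. SRM ranged from -1.75 to -1.49 log2 at day 1 and from -1.87 to -1.58 at day 3, and its calls and those of OAZ2 held in all 11. With 75th percentile scaling and in the authors' deposited values, 1 gene rose at day 1 (OAZ2, not SAT1), 0 rose at day 3, and 2 fell at day 3 (SRM and ODC1). Less the median, SAT1 stayed past 2-fold and ODC1 short of it in both. With an offset of 50, 1 rose at day 1 and 0 at day 3. At 1.5-fold, 2 fell at day 3 (SRM and ODC1).

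The background moved too. The share of rises among called genes was 53.5% at day 1, 42.0% with 75th percentile scaling and 42.9% in the authors' values, and at day 3 it was 70.0%, 50.7% and 54.9%. The median change of genes detected on both arrays shifted by -0.12 and -0.10 at day 3 in these settings. Falls at day 3 numbered 196, but 363 with 75th percentile scaling, 312 with the background mean subtracted, 320 with an offset of 0 and 95 with an offset of 50, which also took rises from day 1 to day 3 from 330 to 200. At 1.5-fold, 1686 rose and 1937 fell at day 1, 1086 and 1167 at day 3, and 1171 and 1206 from day 1 to day 3. No paired analysis was possible because each day has 1 array. With 1 array per day, the spread between cultures is unknown.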
